A study of Mus musculus with 8 samples.

Results

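Type A receptors for gamma-aminobutyric acid (GABA-A receptors) were described here through 7 genes that encode subunits expressed in neurons: the alpha subunits Gabra2, Gabra3, Gabra4 and Gabra5, the beta subunits Gabrb1 and Gabrb2, and the delta subunit Gabrd. Every probe set of the array whose annotation names 1 of these genes and no other was taken, which gave 21 of 45037 probe sets, and none was chosen by its values. Each probe set is made of several short probes to a transcript. The samples were hippocampi of male 3xTg-AD mice at 10 months of age, a strain whose transgenes carry mutant forms of the amyloid precursor protein, tau and presenilin 1 and which develops amyloid and tau pathology. The 4 control mice had been fed an AIN-93G diet and the 4 RA mice the same diet with 0.5% rosmarinic acid (RA), a polyphenol of Lamiaceae herbs, for 8 months. All samples carry the transgenes, and wild-type mice were not analysed here. The Methods name 4 mice of average weight per group and also mention pooled RNA, so whether an array stands for 1 mouse is not settled, and the p-values measure only the spread between these 8 arrays.

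GABA-A receptors are pentameric chloride channels that open when GABA binds at the interface of an alpha and a beta subunit, and they carry most fast inhibition in the brain. Alpha and beta subunits with a gamma subunit form most synaptic receptors, whereas receptors with a delta subunit, and many with the Gabra5 product, lie outside synapses and give a tonic current. In the hippocampus, the alpha 5 subunit is known from pyramidal cells, and the alpha 4 and delta subunits from granule cells of the dentate gyrus. Gabra2, Gabra4 and Gabrb1 lie near each other on chromosome 5 together with the gamma subunit gene Gabrg1, and Gabra5 lies next to Gabrg3 on chromosome 7. Gabra3 is next to Gabrq on chromosome X, Gabrb2 is next to Gabra6 on chromosome 11, and Gabrd is on chromosome 4.

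The upstream sequences of Gabra3, the subunit gene with the largest spread between the arrays, and of Gabra2, which like Gabra3 was highest in control 1, are given to show how far their promoters differ in composition. They cover the 250 bases before a RefSeq start in the build GRCm38.p6, on the minus strand. Capitals mark matches, on either strand, to the motifs searched. These were the TATA box TATAAA, the cAMP response element core TGACG, the GC box GGGCGG and the CCAAT box. The windows lie at chrX:72656920-72657169 for Gabra3 and chr5:71095850-71096099 for Gabra2.
Gabra3: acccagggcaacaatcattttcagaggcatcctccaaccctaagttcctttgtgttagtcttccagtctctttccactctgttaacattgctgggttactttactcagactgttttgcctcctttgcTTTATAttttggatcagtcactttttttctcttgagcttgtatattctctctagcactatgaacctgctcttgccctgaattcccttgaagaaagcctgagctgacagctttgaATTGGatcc
Gabra2: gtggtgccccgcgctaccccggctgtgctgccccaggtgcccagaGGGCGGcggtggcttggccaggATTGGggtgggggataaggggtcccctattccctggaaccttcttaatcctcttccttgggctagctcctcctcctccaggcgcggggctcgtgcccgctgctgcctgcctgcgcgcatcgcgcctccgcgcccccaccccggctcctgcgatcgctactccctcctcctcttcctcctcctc
The Gabra3 window holds 42.4% G and C and 0 CpG dinucleotides, and the Gabra2 window 70% and 18 CpG dinucleotides. The Gabra3 window has 1 match to TATAAA and 1 to CCAAT, while that of Gabra2 has 1 to GGGCGG and 1 to CCAAT. Over 32851 promoter windows of this length, TATAAA occurred in 12.4%, TGACG in 17.8%, GGGCGG in 32.7% and CCAAT in 33.8%. The matches are descriptions of the letters and name no factor. Gabra3 has another listed start, whose window (chrX:72656808-72657057) overlaps Gabra3 itself and is not shown. That window holds 39.2% G and C, with 1 match to TATAAA and 2 to CCAAT. The windows of Gabra4, Gabra5, Gabrb1 and Gabrb2 overlap annotated genes and are not shown.

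The arrays hold 45037 probe sets after the manufacturer's controls were left out, and their deposited values are log2 summaries made with FARMS, a factor model that returns a nearly constant value when the probes of a set do not vary together. Only 3758 probe sets (8.34%) had an SD over the 8 arrays above 0.01, and the others are marked here as unmeasured. Of these 3758, 73.1% had their higher mean with RA, and the median log2 fold change was 0.069. No arrays were identical, and the correlation between arrays, across probe sets, was 0.989 to 0.998. Control 1 and RA 2 stood apart from the other arrays in the mean of markers of hippocampal cells. Results are therefore also given without both of these arrays, a setting chosen after the values were seen. Neurod6, a transcription factor of pyramidal neurons, had log2 values of 7.92 to 9.82, above the array medians of 5.829 to 5.835. Prox1, a transcription factor of granule cells, was at 6.14 to 7.36 on its brightest probe set. Its other measured probe sets lay at 5.33 to 5.90, near the medians, so its presence on every array is not shown.

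Of the 21 subunit probe sets, 7 varied and 14 were unmeasured. The probe sets that varied stand for 6 of the 7 genes, with 2 for Gabra3 and 1 each for Gabra2, Gabra5, Gabrb1, Gabrb2 and Gabrd. Gabra4 was unmeasured, since both of its probe sets were nearly constant, as were 4 of the 5 probe sets of Gabra2, 3 of the 4 of Gabrb1, 4 of the 5 of Gabrb2 and 1 of the 2 of Gabrd. The SD of the 14 unmeasured probe sets was at most 0.000342, with Gabrd (1457763_at) nearest to the limit from below, and that of the other 7 was 0.0181 to 0.504, with Gabrb2 (1428203_at) nearest from above. Unmeasured probe sets had mean log2 values of 5.39 to 9.51, so a nearly constant value was not limited to dim ones. It says nothing about whether the transcript was equal in both groups.

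**Figure D1:**
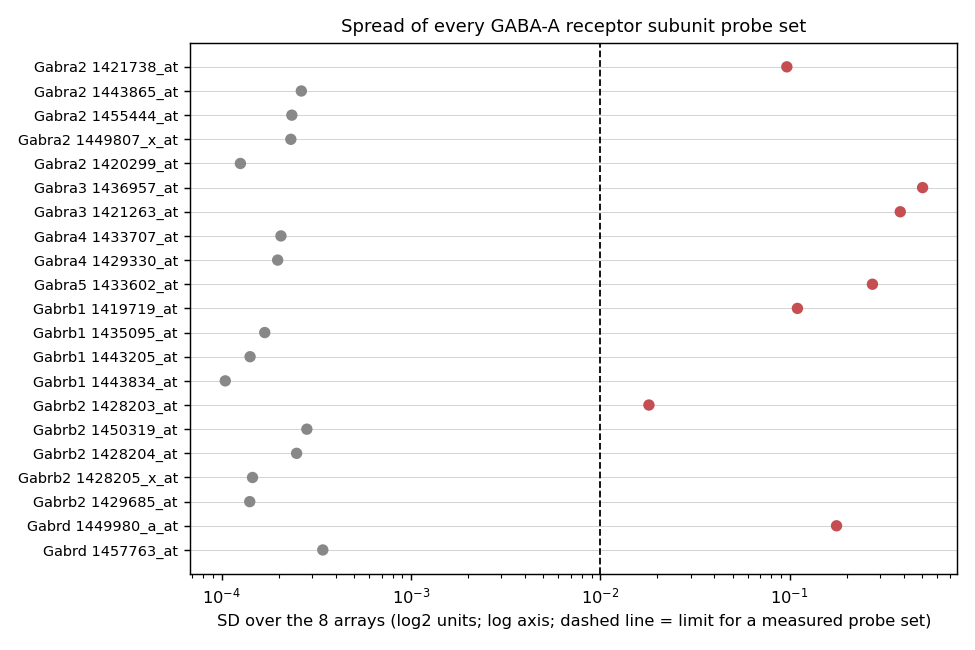
SD over the 8 arrays (log2 units, log axis) of each of the 21 probe sets of the 7 subunit genes, with a dashed line at the limit of 0.01. The 7 red points (SD 0.0181 to 0.504) are measured and the 14 grey points (at most 0.000342) are unmeasured, among them both probe sets of Gabra4.

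No subunit gene was called in either direction. The test named in the Methods, the rank product, sets every RA array against every control array, ranks all probe sets in each of the 16 differences, and calls those where the estimated proportion of false positives is under 0.05. It called 0 of the 21 subunit probe sets, where it called 0.913% of all probe sets higher and 0.571% lower, and 10.9% and 6.84% of those that vary. limma, which fits all probe sets and weighs each by its own spread, called none at a Benjamini-Hochberg adjusted p under 0.05, as it called 0% of all probe sets. It gave 1 of the 7 an unadjusted p under 0.05, where 10.1% of all probe sets and 9.66% of those that vary had one. limma's calls changed with the scaling of the arrays: with array medians subtracted it called 15 of the 21 subunit probe sets, 14 of them unmeasured, where it called 92% of all probe sets and 9.31% of those that vary. With quantile normalization it called 8 of the 21, where it called 63.4% of all probe sets and 6.68% of those that vary. Under each scaling, Gabrb2 (1428203_at) was the only call among the 7 subunit probe sets that vary. Median subtraction moved the median log2 fold change of the unmeasured probe sets to -0.00376. The groups did not part in any of the 7, while they did not overlap in 5.59% of those that vary. The RA mean was the higher in 5 of the 7 and the median log2 fold change was 0.074, beside 73.1% and 0.069 over all probe sets that vary. Without control 1, the rank product called 3 of the 21 higher, both probe sets of Gabra3 and that of Gabrb1, where it called 2.11% of all probe sets and 25.3% of those that vary. Without control 4 it called Gabra3 (1436957_at) alone, with 1.07% of all probe sets called higher.

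**Figure D2:**
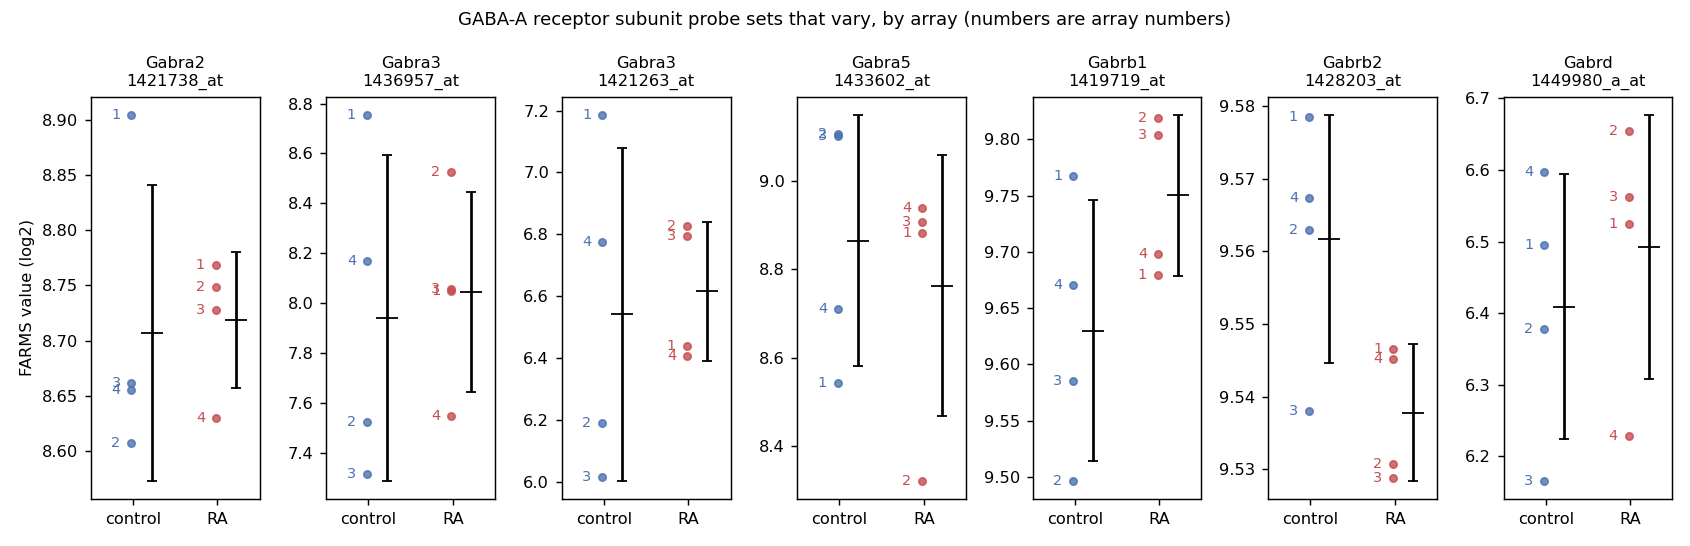
FARMS log2 values of the 7 subunit probe sets that vary, with 1 point for each array, numbered within its group, and a bar for the mean and SD (n = 4 per group). Each panel has its own axis, which does not start at 0. The groups overlap in every panel, and Gabra3 has the widest range, from 7.32 in control 3 to 8.75 in control 1.

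Gabra3 encodes an alpha subunit known from monoaminergic nuclei and the reticular thalamus. Its probe set 1436957_at had log2 values of 8.75, 7.53, 7.32 and 8.17 in control 1 to control 4. In RA 1 to RA 4 the values were 8.05, 8.53, 8.06 and 7.55. The highest and the lowest values were both in the control group, whose SD of 0.652 was above that of the RA group (0.400), and the RA arrays lay within the control range. The log2 fold change, RA minus control, was 0.10 (limma standard error 0.366, 95% interval -0.78 to 0.98, adjusted p = 0.943), and a 2-sided exact permutation test on the group means gave p = 0.800. With 4 arrays per group this exact test cannot go below p = 0.0286. The other probe set, 1421263_at, had values of 7.19, 6.19, 6.02 and 6.77 in the control group and of 6.44, 6.83, 6.80 and 6.41 in the RA group. It too was highest in control 1 and lowest in control 3, with a log2 fold change of 0.07 (exact permutation test, 2-sided p = 0.771). The direction rested on single arrays. Without control 3 the log2 fold changes were -0.10 and -0.10, without control 2 -0.03 and -0.04, and without RA 2 that of 1436957_at was -0.06, whereas without control 1 they were 0.38 and 0.29.

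Gabra5, the alpha subunit of tonic inhibition in pyramidal cells, ran the other way across the arrays. Its log2 value was 8.54, 9.11, 9.10 and 8.71 in control 1 to control 4 and 8.88, 8.32, 8.91 and 8.94 in RA 1 to RA 4. The arrays highest in Gabra3, control 1 and RA 2, were the lowest in Gabra5, and control 2 and control 3, the lowest in Gabra3, were the highest. Its log2 fold change was -0.10 (limma standard error 0.196, 95% interval -0.57 to 0.37, adjusted p = 0.884; exact permutation test, 2-sided p = 0.657), and it was 0.04 without RA 2. RA 2 lay 0.560 below the next RA array, and the other RA arrays spanned 8.88 to 8.94.

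Gabra2 encodes an alpha subunit of synaptic receptors. Its measured probe set had log2 values of 8.90, 8.61, 8.66 and 8.66 in control 1 to control 4 and of 8.77, 8.75, 8.73 and 8.63 in RA 1 to RA 4. The RA arrays lay between the extremes of the control arrays. The log2 fold change was 0.01 (95% interval -0.16 to 0.18, exact permutation test, 2-sided p = 0.943), and its sign turned without control 2, control 3, control 4 or RA 1, with values of -0.02 to -0.00360.

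The beta subunits, which are needed to assemble a receptor and carry part of the GABA site, showed small differences of opposite sign. Gabrb1 had log2 values of 9.77, 9.50, 9.59 and 9.67 in control 1 to control 4 and of 9.68, 9.82, 9.80 and 9.70 in RA 1 to RA 4. All RA arrays lay above control 2, control 3 and control 4, and control 1 lay between RA 3 and RA 4. The control mean was 9.63 ± 0.116 (SD, n = 4) and the RA mean 9.75 ± 0.0715 (SD, n = 4). This gave a log2 fold change of 0.12 (limma standard error 0.0653, 95% interval -0.04 to 0.28, adjusted p = 0.578; exact permutation test, 2-sided p = 0.114). It stayed positive, at 0.08 to 0.17, when any 1 array was left out, and was 0.14 without control 1 and RA 2. The 3 other probe sets of Gabrb1 were unmeasured.

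Gabrb2 had the smallest spread of the measured probe sets. Its log2 values were 9.579, 9.563, 9.538 and 9.567 in control 1 to control 4 and 9.547, 9.531, 9.529 and 9.545 in RA 1 to RA 4. Control 1, control 2 and control 4 lay above every RA array, and control 3 lay among the RA arrays. The log2 fold change was -0.02 (limma standard error 0.00934, 95% interval -0.0463 to -0.00152), which is 0.984 times the control level, with an unadjusted p = 0.0397 and an adjusted p = 0.475 from limma, and the exact permutation test, 2-sided, gave p = 0.0857. Its SD of 0.0181 was below the lowest SD of any probe set that the rank product called (0.0305). limma's adjusted p was 0.0206 with array medians subtracted and 0.0211 with quantile normalization, with log2 fold changes of -0.03 and -0.03, the settings in which limma called most of all probe sets. The log2 fold change stayed between -0.03 and -0.02 when any 1 array was left out, but the other 4 probe sets of the gene were unmeasured.

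Gabrd, the delta subunit of tonic, neurosteroid-sensitive receptors, had log2 values of 6.49, 6.38, 6.17 and 6.60 in control 1 to control 4. In RA 1 to RA 4 they were 6.52, 6.65, 6.56 and 6.23. RA 2 was highest and control 3 lowest, with RA 4 next to it. Its log2 fold change was 0.08 (limma standard error 0.125, 95% interval -0.22 to 0.38, adjusted p = 0.845; exact permutation test, 2-sided p = 0.543), and it ran from 0.00221 to 0.17 when 1 array was left out.

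**Figure D3:**
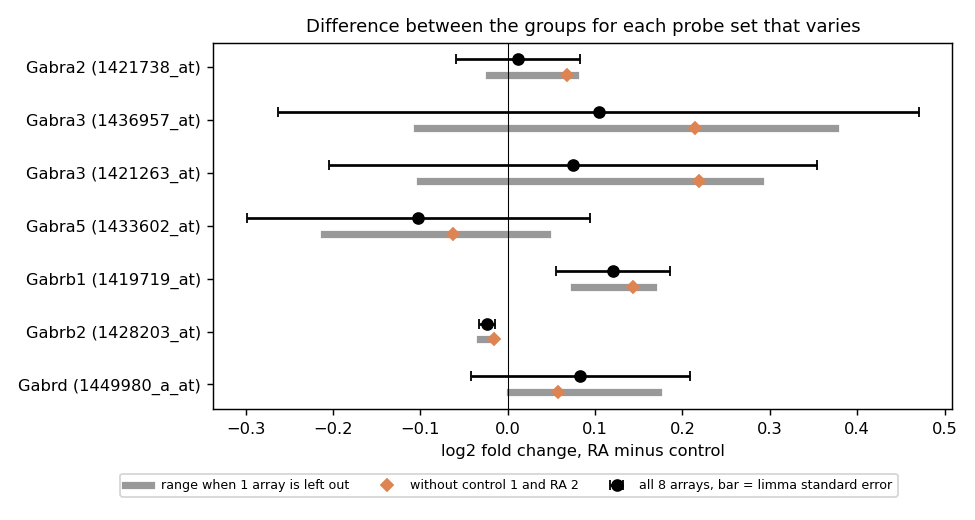
Log2 fold change (RA minus control) of the 7 subunit probe sets that vary, with limma's standard error over all 8 arrays (black), the range when any 1 array is left out (grey) and the value without control 1 and RA 2 (orange). The grey range crosses 0 for Gabra2, Gabra5 and both probe sets of Gabra3, and stays on 1 side for Gabrb1, Gabrb2 and Gabrd.

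Without control 1 and RA 2, none of the 7 was called by the rank product. The log2 fold changes were then 0.07 for Gabra2, 0.21 and 0.22 for the probe sets of Gabra3, -0.06 for Gabra5, 0.14 for Gabrb1, -0.02 for Gabrb2 and 0.06 for Gabrd, each of the same sign as over all arrays.

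Markers of brain regions and cell types differed between the arrays as well, and their values are set beside those of Gabra3 and Gabra5. For each marker list, the mean deviation of its measured genes from the average of the 8 arrays was taken on the log2 scale. The striatum list, of which 4 of 10 genes were measured (Penk, Tac1, Pde10a and Drd1), was at 0.52 in control 1, 0.34 in RA 2 and 0.21 in control 4. It was at 0.02 in RA 3, -0.07 in RA 1, -0.28 in RA 4, -0.32 in control 2 and -0.43 in control 3. This is the order of the arrays in Gabra3 (1436957_at) from the highest to the lowest. Penk, the precursor of the enkephalins and the brightest gene of the list, had a log2 value of 9.61 in control 1, against 7.43 to 8.80 in the other arrays. Not every gene of the list moved this way, since Pde10a (1439618_at), a phosphodiesterase of striatal neurons, was lowest in RA 2 (6.71), at 7.14 in control 1, the lowest control value, and was called lower with RA. Of the list, Drd2, Ppp1r1b, Rgs9 and Syndig1l were unmeasured.

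On average, the lists of hippocampal principal cell markers ran in the direction of Gabra5, though not every gene did. The pyramidal cell list (6 of 7 genes measured) was at -0.30 in control 1 and -0.47 in RA 2 and at 0.02 to 0.27 in the others, where control 2 was highest. Of its genes, Wfs1 was highest in control 1 (9.21, against 7.92 to 8.60 in the other arrays). Mpped1 was at 8.69 in control 1, the highest control value. The dentate granule cell list (6 of 7 measured) was at -0.59 in control 1 and -0.61 in RA 2 and at 0.09 to 0.38 in the other arrays. Calb1, a calcium-binding protein of granule cells and many interneurons, was an exception, with its highest value, 10.5, in control 1. C1ql2 of the same list was also highest there, at 6.96, against 6.49 to 6.72 in the other arrays. The oligodendrocyte list (7 of 9 measured), which holds no neuronal gene, was likewise lowest in RA 2 and control 1, at -0.82 and -0.63, with Mbp, a myelin protein, at 11.6 and 11.9 there and at 12.2 to 12.9 in the other arrays. The list of general neuronal genes (9 of 10 measured), with Snap25 and Map2, deviated by no more than -0.09 to 0.09 in any array, although Snap25, a protein of synaptic vesicle release, was itself called lower with RA. In bulk tissue, fewer cells of a type and less RNA per cell cannot be told apart, and the part of these markers in the values of the subunits was not tested.

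**Figure D4:**
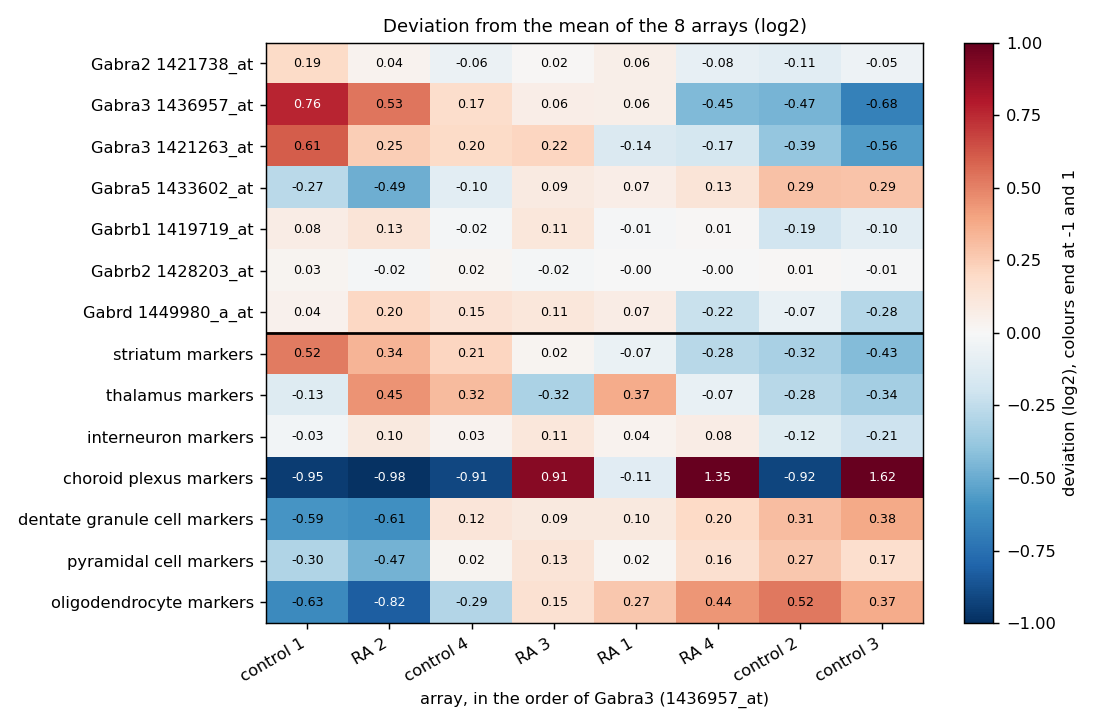
Deviation from the mean of the 8 arrays (log2) for the 7 subunit probe sets that vary (above the line) and for the mean of the measured genes of 7 marker lists (below it), with the arrays in the order of Gabra3 (1436957_at). Control 1 and RA 2, on the left, are high in Gabra3 and in striatum markers and low in Gabra5 and in granule cell, pyramidal cell and oligodendrocyte markers.

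Other marker lists did not share this order. The thalamus list (7 of 9 measured) was highest in RA 2 (0.45) and RA 1 (0.37) and lowest in control 3 (-0.34), with RA 3 (-0.32) beside it, a span of -0.34 to 0.32 in the control and -0.32 to 0.45 in the RA group. The choroid plexus list (11 of 13 measured) was high in control 3 (1.62), RA 4 (1.35) and RA 3 (0.91), the first of which was lowest in Gabra3 and Gabrd. The interneuron list (6 of 10 measured), which shares Gad1 with the list of GABA signaling genes, was at -0.21 to 0.03 in the control arrays and at 0.04 to 0.11 in the RA arrays, and the astrocyte list (7 of 9 measured) at -0.12 to 0.03 and 0.02 to 0.09. The microglia list (4 of 9 measured) lay at -0.30 to 0.10 and -0.05 to 0.23, and the endothelium list (3 of 6 measured) at -0.15 to 0.02 and -0.03 to 0.27.

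The genes whose values were most like those of a subunit over the 8 arrays were found among 2495 other genes with a measured probe set, by the Pearson correlation. They were chosen as the highest of these, so the values are a description with no test. For Gabra3 they were Gucy1a1 (0.995) and Negr1 (0.990), and for Gabra5 they were St18 (0.992) and Tnfaip6 (0.987). Gabrb1 was nearest to Gas7 (0.989) and Cbx5 (0.977), Gabrd to Nr2f1 (0.973) and Tlcd1 (0.954), and Gabra2 to Ecel1 (0.954) and Pea15a (0.935). The likeness was lowest for Gabrb2, to Tafa2 (0.860) and Atp6v1c1 (0.848). Of these 12 genes, the rank product called Ecel1 and Cbx5 higher and Tafa2 lower.

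The other genes of GABA signaling give the setting of these subunits. Of 43 listed genes, 35 have a probe set that names them alone and 14 were measured, with 17 probe sets that vary. The rank product called 4 of the 35 genes higher and none lower, counting a gene when any of its probe sets was called. All 4 were among the 14 measured genes. The shares over the array are of probe sets, not genes: 0.913% of all and 10.9% of those that vary were called higher. limma called none, with a lowest adjusted p of 0.488, but with array medians subtracted it called Slc6a11 (adjusted p = 0.0486), where it called 9.31% of the probe sets that vary. The RA mean was the higher in 14 of the 17 probe sets and the median log2 fold change was 0.10, beside 73.1% and 0.069 over all probe sets that vary. None of the 17 had groups that did not overlap. Among the other GABA-A receptor subunits, Gabrg1 was measured, whereas Gabra6, Gabre, Gabrg3, Gabrp, Gabrq, Gabrr1 and Gabrr2 were unmeasured.

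Gabrg1, the gamma subunit gene next to Gabra2 on chromosome 5, was called higher through both of its measured probe sets. On 1427227_at its log2 values were 6.58, 6.25, 6.08 and 6.45 in control 1 to control 4 and 6.70, 6.93, 6.60 and 6.42 in RA 1 to RA 4. RA 1, RA 2 and RA 3 lay above every control array and RA 4 among them, with a log2 fold change of 0.32 (limma standard error 0.145, adjusted p = 0.517; exact permutation test, 2-sided p = 0.114). Like Gabra3, this probe set was lowest in control 3. The other measured probe set, which was brighter, parted the groups less. It was at 7.33, 6.85, 6.71 and 7.27 in control 1 to control 4. In RA 1 to RA 4 it was at 7.36, 7.61, 7.20 and 7.05. There RA 3 and RA 4 lay below control 1 and control 4. The log2 fold change was 0.26 (limma standard error 0.188, exact permutation test, 2-sided p = 0.229). The estimated proportion of false positives was 0.048, just under the threshold of 0.05. Of the neighbours of Gabrg1, Gabra2 and Gabrb1 were not called and Gabra4 was unmeasured.

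Genes of GABA uptake and breakdown made up the other calls. The GABA transporter Slc6a11 had log2 values of 7.98, 7.68, 7.71 and 7.91 in the control group and of 8.10, 8.20, 8.09 and 7.86 with RA (log2 fold change 0.24, exact permutation test, 2-sided p = 0.0857). The transporter Slc6a13, also known from the meninges, was at 6.35, 6.01, 5.83 and 6.05 in the control group and at 6.03, 7.11, 6.32 and 6.14 with RA (log2 fold change 0.34, exact permutation test, 2-sided p = 0.286). RA 2 alone lay far above the rest, and the log2 fold change of Slc6a13 was 0.10 without it. Abat, which breaks GABA down, was at 9.04, 8.69, 8.72 and 9.05 in the control group and at 9.08, 9.20, 8.83 and 9.17 with RA (log2 fold change 0.20, exact permutation test, 2-sided p = 0.171). The calls of these 3 genes and of Gabrg1 were lost among the probe sets that vary, and without any 1 of the RA arrays. Of the 4, Gabrg1 alone was called without control 2 or without control 3. Astrocyte markers also had higher means with RA: this held for all 13 astrocyte probe sets that vary, beside 73.1% of all probe sets that vary. This was not particular to astrocytes. It held for all 16 choroid plexus, 6 interneuron and 3 endothelium probe sets that vary, and for 10 of 11 thalamus ones. It held for only 1 of 9 dentate granule cell and 1 of 7 pyramidal cell ones. By any of their probe sets, 4 of the 9 genes of the astrocyte list were called higher (Aldh1l1, Aqp4, Gja1 and Slc1a3). So were 11 of 13 choroid plexus, 3 of 9 thalamus, 1 of 10 interneuron, 1 of 10 striatum and 1 of 6 endothelium genes. Of all probe sets that vary, 10.9% were called higher. Aqp4 and Gja1 each also had a measured probe set that was not called, and Aldoc, Gfap and Slc1a2 were not called. The part of astrocyte markers in the calls of the pathway genes was not tested.

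Over all 8 arrays, synthesis, anchoring and chloride transport gave no calls. With 1 array left out, calls by gene were followed only for Slc6a13, Gabrg1, Slc6a11, Abat, Rdx, Slc12a2, Plcl1 and Gad1. Of those not called over all 8 arrays, the rank product called Gad1 higher and Plcl1 lower without control 1. It called Plcl1 lower without RA 4 and Slc12a2 higher without control 3. Without control 1 it called 6 pathway genes higher, not all of them among the genes followed. Gad1, which makes GABA, had a log2 fold change of 0.12 (limma standard error 0.0663, adjusted p = 0.589). Gphn, the gephyrin gene, whose product holds receptors at synapses, had one of 0.01, and Nlgn2, the neuroligin of inhibitory synapses, of 0.08 (standard error 0.0778). Rdx, which encodes radixin, an anchor of alpha 5 receptors, was at -0.15 (standard error 0.0928) and Plcl1, a receptor trafficking gene, at -0.13 (standard error 0.196). The chloride importer Slc12a2, which is abundant in choroid plexus, was at 0.14 (standard error 0.320) on 1417623_at, with its highest values in control 3 (8.21) and RA 4 (8.10), the arrays highest in choroid plexus markers. Its sign turned without control 1 and without RA 4. Gabbr1, a subunit of the metabotropic GABA-B receptor, was at 0.00761 (standard error 0.00718).

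**Figure D5:**
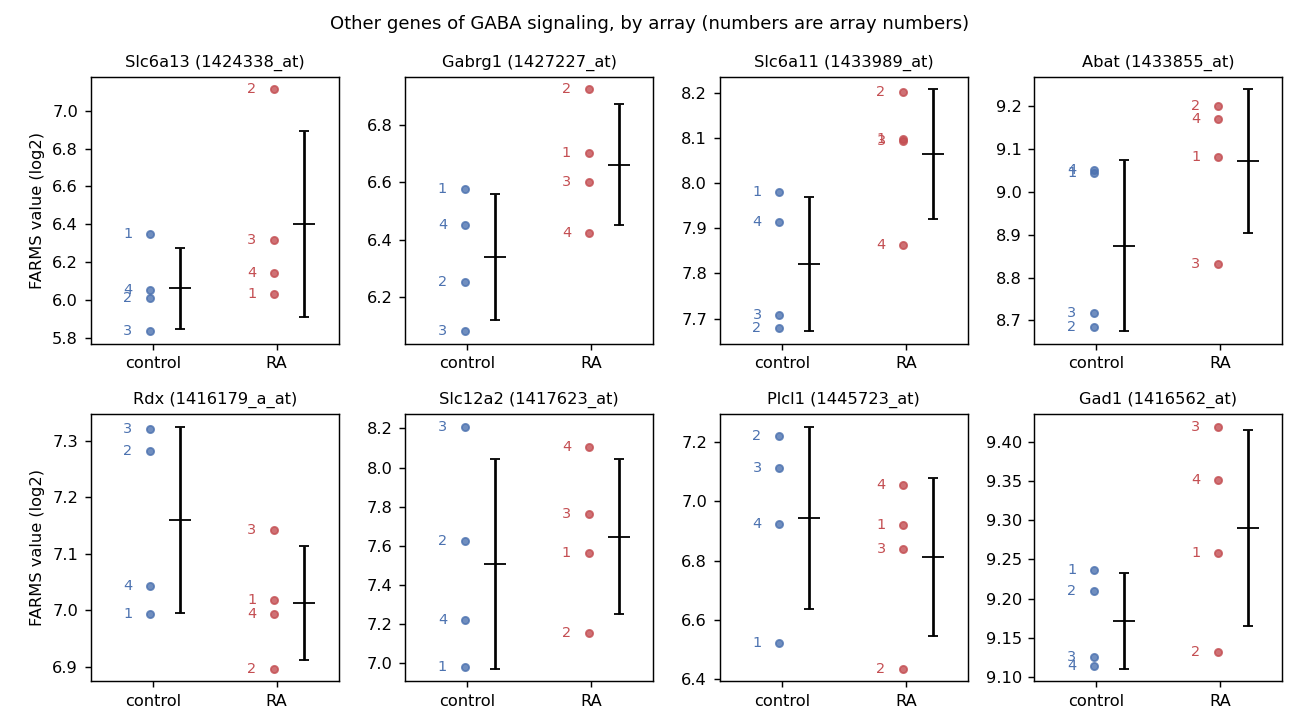
FARMS log2 values of 8 other genes of GABA signaling, with 1 point for each array, numbered within its group, and a bar for the mean and SD (n = 4 per group); each panel has its own axis, which does not start at 0. Slc6a13, Gabrg1, Slc6a11 and Abat were called higher by the rank product, and the groups overlap in all 8 panels.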

How the data were processed

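Gene expression was measured on 8 Affymetrix mouse expression arrays, 4 per group by the labels. The authors made the values with FARMS from the scanner files and deposited them on the log2 scale. They were used without further scaling, and how arrays were scaled to each other is not stated in the sources used here. Gene names came from the annotation of the platform, updated to the genes of GRCm38.p6: 34945 name 1 gene, 932 several and 9160 none. No column of per-sample values was left out.

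The rank product (100 permutations within arrays, threshold 0.05) was written in Python 3.11.15, and limma 3.58.1 in R 4.3.3 gave log2 fold changes, standard errors, intervals and adjusted p-values. Both were tested on simulated data. The rank product takes no account of the spread of a probe set. The number of arrays limits the precision.

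The members, marker lists, pathway list (43 genes, from textbook knowledge) and tests were chosen with earlier results of these data known. Genes were named by rule: all members, up to 8 other pathway genes by call and size, the 2 genes most like each member, and the 2 brightest of a marker list. Named beyond it, after values were seen, are Gphn, Nlgn2, Gabbr1, the called astrocyte genes, Pde10a, Wfs1, C1ql2, the unmeasured genes of the striatum list and the unmeasured pathway genes. Alternatives were quantile normalization, array median subtraction, filters on SD and on a mean of 6, leaving out arrays, a replicate block, limma with and without trend, a threshold of 0.01 and 1 probe set per gene. The calls of limma under other scalings were counted after the values were seen. Some listed genes are not reported here.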

Additional observations from a re-analysis of the deposited data

Results flagged for a closer look

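The log2 value of Gabra5 in RA 2, 8.32, stood apart from the other RA arrays at 8.88 to 8.94, with a gap that was 0.907 of the range of the group, above Dixon's 95% limit for 4 samples. This was the only such gap in 30 groups of 4 values, and chance flags about 1 in 20 groups. RA 2 was also lowest in pyramidal cell markers (-0.47) and in oligodendrocyte markers (-0.82), whose part in the value was not tested.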

How the results depend on the processing

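The count of 0 subunit probe sets called by the rank product held under quantile normalization, array median subtraction, both filters, the replicate block, the threshold of 0.01 and without control 1 and RA 2, and limma on the deposited values called 0, but the rank product count ran from 0 to 3 higher, and was 0 lower, when 1 array was left out. Over all probe sets, 411 were called higher and 257 lower. These counts were 4 and 17 among probe sets with an SD above 0.01, 43 and 179 among those with a mean of at least 6, 36 and 158 at a threshold of 0.01, 37 and 237 without control 1 and RA 2, and 0 and 0 with limma on the deposited values, with or without trend and robust moderation (unadjusted p under 0.05 in 4553 for limma). When 1 array was left out they ran from 19 to 949 higher and from 127 to 315 lower. The 4 pathway genes called higher became 0 under both filters, the replicate block, both limma fits, the threshold of 0.01 and without control 1 and RA 2, and ran from 0 to 6 when 1 array was left out, with 0 to 1 lower; 4 were called with 1 probe set per gene. The cause of these changes was not tested.

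With array numbers paired as a replicate block, 68 probe sets were called higher and 211 lower. The deviations of same-numbered arrays correlated at -0.12, -0.33, 0.45 and -0.39, and 1 of 8 arrays correlated best with its own number. The labels tie these arrays by number only, and 4 correlations cannot show whether same-numbered arrays share a batch.

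The log2 fold change, with 1 array left out, ran from -0.02 to 0.08 for Gabra2, from -0.10 to 0.38 and from -0.10 to 0.29 for the probe sets of Gabra3, from -0.21 to 0.04 for Gabra5 and from -0.04 to 0.37 for Slc12a2. The log2 fold change of Gabra2 turned to -0.0217 without control 2 and reached 0.0774 without control 1. It was also negative without control 3, control 4 or RA 1. That of Gabra5 turned to 0.0448 without RA 2, and that of Slc12a2 to -0.0392 without control 1 and to -0.0149 without RA 4. Both probe sets of Gabra3 turned without control 2 and without control 3, and 1436957_at also without RA 2. Among the subunits and the 8 pathway genes recomputed under these alternatives, the sign turned for no other probe set.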
